A study of Mus musculus with 12 samples.

Results

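The interferon response genes described here are 37 mouse genes whose transcription is raised by interferons. A gene was taken as measured where a non-control probe carried an accession that maps to its symbol, which held for 35 of the 37, with 44 probes in all, among 17167 named genes tested in the series. Mx1 and Mx2, antiviral GTPases of the type I response, were not analysed here because no probe was matched to them. The genes fall into 10 type I effectors (the Ifit and Oas genes and Mx1 and Mx2), 6 interferon gamma GTPases (Gbp2, Gbp3, Igtp, Irgm1, Irgm2 and Iigp1), 10 other interferon-stimulated genes, 3 RNA sensors, 5 transcription factors and 3 genes of antigen processing. The arrays cover 2 genotypes, Eng+/- (1 altered allele of Eng, the gene of the co-receptor endoglin) and wt, on 2 days, 50 and 90, and 3 treatment levels, which are clp, tpa and no named treatment (called none here), and each of these combinations has 1 array, 12 in all. What clp and tpa stand for, and from when the days are counted, cannot be read from the labels. Both wt none arrays have the word pool in their titles, and no strain, age of an animal or number of animals is given. All samples were labelled with Cy5 and hybridised against Cy3-labelled RNA pooled from all conditions, so each value is a log2 ratio to the same pool. The series text instead speaks of wt in Cy3 and of dye swaps, and the dyes are taken here from the labels of the single samples.

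Interferons are secreted proteins that warn neighbouring cells of infection. Type I interferons signal through the receptor subunits Ifnar1 and Ifnar2 and the kinases Jak1 and Tyk2 to a complex that holds Stat2 and Irf9 and binds the interferon-stimulated response element (ISRE). Interferon gamma, made mainly by T cells and natural killer cells, signals through Ifngr1 and Ifngr2 to genes with a gamma-activated sequence (GAS), among them genes of further factors such as Irf1. Ifit and Oas proteins act against viral RNA, whereas Gbp and Irg proteins are GTPases that attack the vacuoles of intracellular microbes. In skin, keratinocytes, fibroblasts and resident immune cells all respond to interferons, and hair follicles keep parts of antigen presentation low during growth.

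The promoter letters are shown first because the type I effectors and the interferon gamma GTPases are named for the signal that is known to drive them. RefSeq windows (build GRCm38.p6) were held for 29 of the 37 genes, 34 windows in all, and the 250 bases before each start were searched on both strands for the core of the ISRE, GAAANNGAAA, and of the GAS, TTCNNNGAA. An ISRE core was present in 13 of the 34 windows (38.2%), against 2.98% of 32851 windows of all genes, and a GAS core in 8 (23.5%), against 7.02%. Among type I effectors 4 of 7 genes with a window had an ISRE core and 2 had a GAS core, and among the interferon gamma GTPases 5 of 5 had an ISRE core and 2 a GAS core. In these few genes neither core set the type I effectors and the interferon gamma GTPases apart by signal. Both cores may overlap, as they do in Bst2. A match describes letters and not binding. In the following stretches, read 5′ to 3′ along the gene's strand, capitals mark the matched cores.
Isg15: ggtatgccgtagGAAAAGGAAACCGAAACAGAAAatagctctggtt
Ifit1: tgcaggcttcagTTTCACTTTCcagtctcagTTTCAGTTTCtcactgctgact
Ifit3: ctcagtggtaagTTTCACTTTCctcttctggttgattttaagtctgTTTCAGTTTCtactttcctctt
Oas1a: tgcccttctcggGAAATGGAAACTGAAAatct
Bst2: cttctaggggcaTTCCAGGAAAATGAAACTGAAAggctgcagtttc
Gbp3: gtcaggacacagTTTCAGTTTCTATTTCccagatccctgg
Gbp2: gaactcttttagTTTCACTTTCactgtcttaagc
Irgm1: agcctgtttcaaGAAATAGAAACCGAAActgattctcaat
Igtp: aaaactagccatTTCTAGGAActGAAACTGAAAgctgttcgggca
Irgm2: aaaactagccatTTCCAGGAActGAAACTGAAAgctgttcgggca
Irf1: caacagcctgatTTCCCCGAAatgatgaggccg
The plus-strand stretches are Ifit1 at chr19:34640773-34640825, Ifit3 at chr19:34583361-34583428, Gbp3 at chr3:142559987-142560026, Gbp2 at chr3:142620592-142620625, Igtp at chr11:58199499-58199543, Irgm2 at chr11:58214890-58214934 and Irf1 at chr11:53769912-53769944. The minus-strand stretches are Isg15 at chr4:156200863-156200908, Oas1a at chr5:120907526-120907557, Bst2 at chr8:71537575-71537620 and Irgm1 at chr11:48871423-48871462. The neighbouring GTPase genes Igtp and Irgm2 each had a GAS core followed 2 bases later by an ISRE core, in stretches that lay 57 to 13 and 87 to 43 bases before the start. In the Irf1 window, the stretch with the GAS core lay 102 to 70 bases before the start.

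The median Cy5 intensity ranged from 166.5 to 573 over the 12 arrays, and 34 of the 35 measured members were well above background in both channels on every array. Oas3 was above background in Cy5 on 9 arrays, and the spots of Ifi27l2a on 6 arrays and of Ifitm3 on 2 arrays were saturated, so that differences of these 2 genes can be understated. The labels call the material embryonic stem cells of the E14 line, and of 8 stem cell genes 5 were above background on all 12 arrays (Nanog, Dppa5a, Utf1, Tdgf1 and Esrrb), Dppa3 on 11, Pou5f1 on 1 and Zfp42 on 0. For Tdgf1 this holds for its brightest probe only, and its other probes were above background on 0 arrays. Of the epidermal genes 6 of 6, of the fibroblast genes 6 of 6 and of the hair shaft genes 10 of 11 were above background on all 12. The probes used for Krt5, Lor, Col1a1 and Col3a1 were saturated on all 12. Epidermal signals this bright are at odds with the label of stem cells, and the origin of the RNA was not tested. Eng itself read lower in Eng+/- than in wt within 5 of the 6 pairs of equal treatment and day, whereas in the tpa 50 d pair the array labelled Eng+/- read higher, at -0.49 against -1.13. Each treatment lies on a slide of its own, so treatment and slide cannot be told apart in any difference between treatments. No group has a second array: limma was fitted to all 12 arrays and 25323 features, with a term for genotype and one for each of the 6 combinations of treatment and day, and its p-values (two-sided, Benjamini-Hochberg adjusted over all features, threshold 0.05) rest on the spread that genotype and condition leave unexplained. Arrays are given below in the order Eng+/- 90 d, wt 90 d, Eng+/- 50 d and wt 50 d within a treatment.

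Interferon response genes were lower with clp than with none. Of the 35 members, 17 passed the test and all 17 fell, against 3.49% of all features called lower. The median log2 difference was -0.70 over the members and 0.01 over all features, and 33 of 35 fitted differences were below 0, against 48% of features. On 16 members the 4 clp arrays all lay below the 4 none arrays, against 3.97% of features. By genotype and day, the median over the members was -0.53 and -0.98 at 50 d and -0.59 and -0.91 at 90 d, in each case for Eng+/- and wt.

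**Figure D1:**
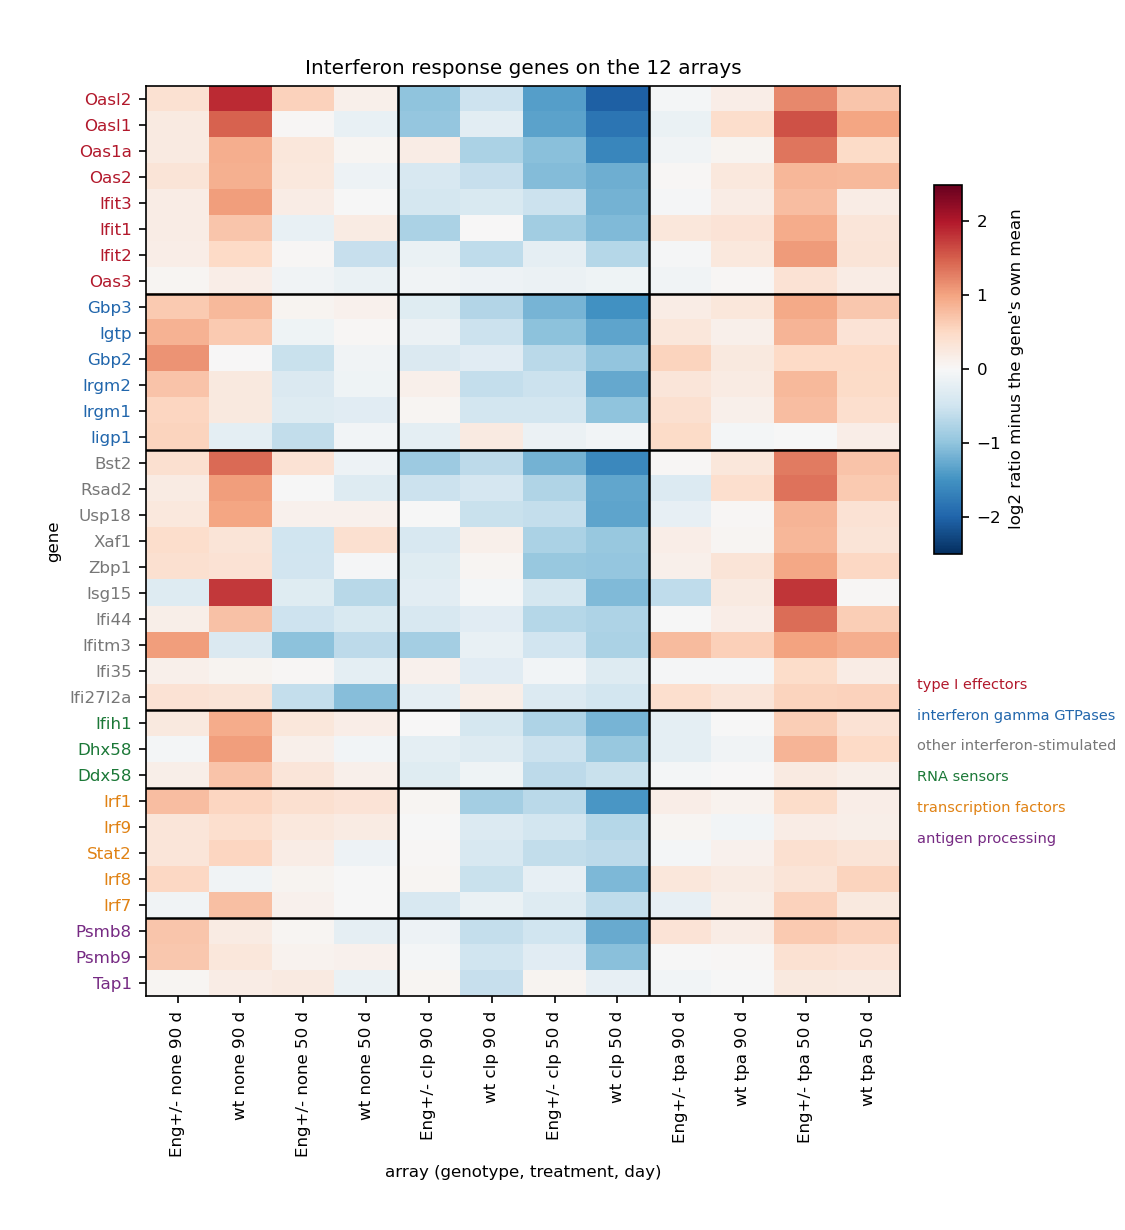
Colours show the log2 ratio of each of the 35 measured genes (rows, grouped by role) on each of the 12 arrays (columns, grouped by treatment), minus the gene's own mean over the arrays. The wt clp 50 d array is the lowest, with a median of -1.04 over the members, and the Eng+/- tpa 50 d array the highest, with 0.81.

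Of the 8 measured type I effectors, 6 fell with clp against none, with a median difference of -1.07 over the 8. Oasl2, a relative of the 2′-5′ oligoadenylate synthetases, read -0.50, 0.99, -0.31 and -0.76 on the none arrays. It read -1.89, -1.39, -2.26 and -2.93 under clp and -0.92, -0.71, 0.32 and -0.19 under tpa. Its clp values did not overlap those of the other treatments, and it fell by 1.97 on the log2 scale (3.93-fold; SE 0.33, adjusted p = 0.0183). Oasl1, which restrains translation of Irf7, read -0.61, 0.65, -0.80 and -1.01 on the none arrays, -1.81, -1.10, -2.18 and -2.66 under clp and -1.00, -0.40, 0.77 and 0.16 under tpa. With clp it changed by -1.50 ± 0.30 (SE; adjusted p = 0.0269), with no overlap between these groups. Oas2, an RNA-activated synthetase that switches on RNase L, read 0.35, 0.90, 0.29 and -0.11 on the none arrays, -0.37, -0.55, -1.06 and -1.20 under clp and 0.05, 0.28, 0.85 and 0.83 under tpa. Again the clp arrays lay below the others, with a difference of -1.15 ± 0.17 (SE; adjusted p = 0.0177). Ifit1, which binds viral RNA that lacks a host cap, read -0.61, -0.10, -1.00 and -0.60 on the none arrays, -1.60, -0.79, -1.67 and -1.90 under clp and -0.51, -0.45, 0.12 and -0.51 under tpa. Here the wt clp 90 d array reached into the range of the none arrays, and the difference was -0.91 ± 0.22 (SE; adjusted p = 0.0433). Oas1a and Ifit3 changed by -1.18 ± 0.27 (SE; adjusted p = 0.0349) and -0.98 ± 0.24 (SE; adjusted p = 0.0435). Ifit2 was at -0.46 ± 0.20 (SE; adjusted p = 0.18) and Oas3, the dimmest of the group, at -0.11 ± 0.07 (SE; adjusted p = 0.368).

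Of the 6 interferon gamma GTPases, 2 fell with clp, and their median difference was -0.70. Gbp3, a guanylate-binding protein, read 0.69, 0.83, 0.09 and 0.13 on the none arrays, -0.28, -0.71, -1.13 and -1.49 under clp and 0.20, 0.30, 0.97 and 0.71 under tpa. All 4 clp values were below all others, and Gbp3 changed by -1.34 ± 0.15 (SE; adjusted p = 0.0149), which is 2.53-fold. Igtp, also called Irgm3, one of the Irg GTPases that guard host membranes, read 0.82, 0.60, -0.16 and -0.03 on the none arrays, -0.20, -0.60, -1.09 and -1.38 under clp and 0.22, 0.08, 0.79 and 0.30 under tpa. Its groups did not overlap either, with a difference of -1.12 ± 0.14 (SE; adjusted p = 0.0149). Gbp2 read 1.22, 0.10, -0.46 and 0.01 on the none arrays, -0.27, -0.20, -0.58 and -0.89 under clp and 0.66, 0.33, 0.59 and 0.60 under tpa. Its Eng+/- none 90 d value was the highest, the clp and none ranges overlapped, and the difference of -0.70 ± 0.23 (SE; adjusted p = 0.0919) did not pass. Irgm1, which regulates autophagy and other Irg proteins, read 0.73, 0.42, -0.15 and -0.11 on the none arrays, 0.23, -0.27, -0.29 and -0.82 under clp and 0.58, 0.31, 0.95 and 0.61 under tpa. Irgm2 read 0.89, 0.41, -0.18 and 0.06 on the none arrays, 0.31, -0.42, -0.36 and -1.11 under clp and 0.47, 0.37, 0.98 and 0.65 under tpa. In both, the Eng+/- clp 90 d array overlapped the none arrays, and the differences were -0.51 ± 0.14 (SE; adjusted p = 0.0575) and -0.69 ± 0.19 (SE; adjusted p = 0.0555). Iigp1 was at 0.04 ± 0.23 (SE; adjusted p = 0.934) with its brightest probe and at -0.65 with a second, dimmer one.

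Of the 10 other interferon-stimulated genes, Bst2 and Usp18 fell with clp, and the median was -0.59. Bst2 encodes tetherin, which holds budding virus at the cell surface, and read 0.80, 1.81, 0.77 and 0.28 on the none arrays, -0.50, -0.24, -0.78 and -1.20 under clp and 0.43, 0.68, 1.70 and 1.11 under tpa. The clp arrays lay apart from the rest, and Bst2 changed by -1.60 ± 0.26 (SE; adjusted p = 0.0177), or 3.02-fold. Usp18, which removes Isg15 from proteins and dampens type I signalling, changed by -0.98 ± 0.24 (SE; adjusted p = 0.0418). Zbp1, a sensor of left-handed nucleic acids that can trigger necroptosis, read -0.64, -0.68, -1.52 and -1.07 on the none arrays, -1.34, -1.00, -1.99 and -2.00 under clp and -0.91, -0.71, -0.08 and -0.52 under tpa. Ifi44 read 0.46, 1.05, -0.21 and -0.07 on the none arrays, -0.08, 0.04, -0.39 and -0.45 under clp and 0.31, 0.48, 1.71 and 0.94 under tpa. Neither passed against none, at -0.60 ± 0.17 (SE; adjusted p = 0.0583) and -0.53 ± 0.19 (SE; adjusted p = 0.114), and in both the ranges overlapped. Ifitm3, a membrane protein that blocks viral entry, read 0.46, -0.94, -1.62 and -1.23 on the none arrays, -1.44, -0.77, -1.07 and -1.38 under clp and 0.21, 0.01, 0.41 and 0.31 under tpa. All 4 tpa values were near or above 0, while among the none arrays only Eng+/- 90 d was. Isg15, a ubiquitin-like modifier with 3 ISRE matches in its window, read -1.70, 0.39, -1.69 and -2.08 on the none arrays, -1.64, -1.44, -1.82 and -2.48 under clp and -2.01, -1.16, 0.40 and -1.36 under tpa. Its values on 2 arrays, wt none 90 d and Eng+/- tpa 50 d, exceeded the other 10 by more than 1 log2 unit, and no difference between treatments passed, with clp against none at -0.57 ± 0.51 (SE; adjusted p = 0.501). Its second, dimmer probe gave -0.14. Rsad2 (viperin), which makes a nucleotide that stops viral polymerases, was at -0.99 ± 0.27 (SE; adjusted p = 0.057), although its groups did not overlap, and Xaf1, Ifi35 and Ifi27l2a were at -0.67, -0.14 and 0.02.

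Among the RNA sensors Ifih1 (MDA5) and Ddx58 (RIG-I), which detect viral RNA in the cytoplasm, fell with clp. Ifih1 read 0.20, 0.88, 0.23 and 0.11 on the none arrays, -0.05, -0.49, -0.82 and -1.22 under clp and -0.30, -0.06, 0.57 and 0.31 under tpa. Ddx58 read -0.52, 0.05, -0.35 and -0.53 on the none arrays, -0.97, -0.76, -1.31 and -1.22 under clp and -0.71, -0.66, -0.43 and -0.52 under tpa. For both, no clp value reached the range of the none arrays, and the differences were -1.00 ± 0.20 (SE; adjusted p = 0.0269) and -0.73 ± 0.16 (SE; adjusted p = 0.0302), with dimmer second probes at -0.30 and -0.14. Dhx58 (LGP2), which modulates both, was at -0.78 ± 0.23 (SE; adjusted p = 0.0704).

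Of the 5 transcription factors, Irf1, Irf9 and Stat2 fell with clp. Irf1, a factor of the interferon gamma response with a GAS core before its start, read 1.37, 1.14, 1.01 and 0.95 on the none arrays, 0.65, -0.24, -0.07 and -0.85 under clp and 0.78, 0.69, 1.06 and 0.78 under tpa. The clp arrays were below all others and spread widely, from -0.85 to 0.65, and the difference was -1.24 ± 0.18 (SE; adjusted p = 0.0177). Irf9 read 0.44, 0.56, 0.40 and 0.34 on the none arrays, 0.13, -0.21, -0.32 and -0.58 under clp and 0.18, 0.06, 0.32 and 0.28 under tpa. Stat2, its partner in the complex that binds the ISRE, read 0.33, 0.57, 0.22 and -0.09 on the none arrays, 0.06, -0.36, -0.59 and -0.63 under clp and -0.02, 0.14, 0.43 and 0.35 under tpa. Irf9 changed by -0.68 ± 0.14 (SE; adjusted p = 0.027) with no overlap, and Stat2 by -0.64 ± 0.16 (SE; adjusted p = 0.0428) with 1 clp array, Eng+/- 90 d, inside the range of the none arrays. Irf7, which amplifies type I interferon production, read 0.07, 0.92, 0.27 and 0.16 on the none arrays, -0.22, 0.01, -0.16 and -0.46 under clp and -0.04, 0.31, 0.75 and 0.42 under tpa. Irf8, a factor of macrophages and dendritic cells, read 1.13, 0.52, 0.67 and 0.59 on the none arrays, 0.65, 0.04, 0.39 and -0.52 under clp and 0.89, 0.82, 0.92 and 1.16 under tpa. These 2 did not pass, at -0.57 ± 0.19 (SE; adjusted p = 0.0966) and -0.59 ± 0.20 (SE; adjusted p = 0.1).

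In antigen processing, the immunoproteasome subunits Psmb8 and Psmb9 fell with clp. Psmb8 read 1.24, 0.75, 0.59 and 0.33 on the none arrays, 0.42, -0.05, 0.06 and -0.71 under clp and 0.90, 0.74, 1.19 and 1.12 under tpa. Psmb9 read 0.87, 0.47, 0.27 and 0.30 on the none arrays, 0.13, -0.31, -0.10 and -0.85 under clp and 0.18, 0.21, 0.57 and 0.53 under tpa. Psmb9 did not overlap between these groups and Psmb8 did, through the Eng+/- clp 90 d array, with differences of -0.76 ± 0.17 (SE; adjusted p = 0.0338) and -0.80 ± 0.15 (SE; adjusted p = 0.0255). Tap1, a subunit of the peptide transporter, was at -0.24 ± 0.14 (SE; adjusted p = 0.295).

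**Figure D2:**
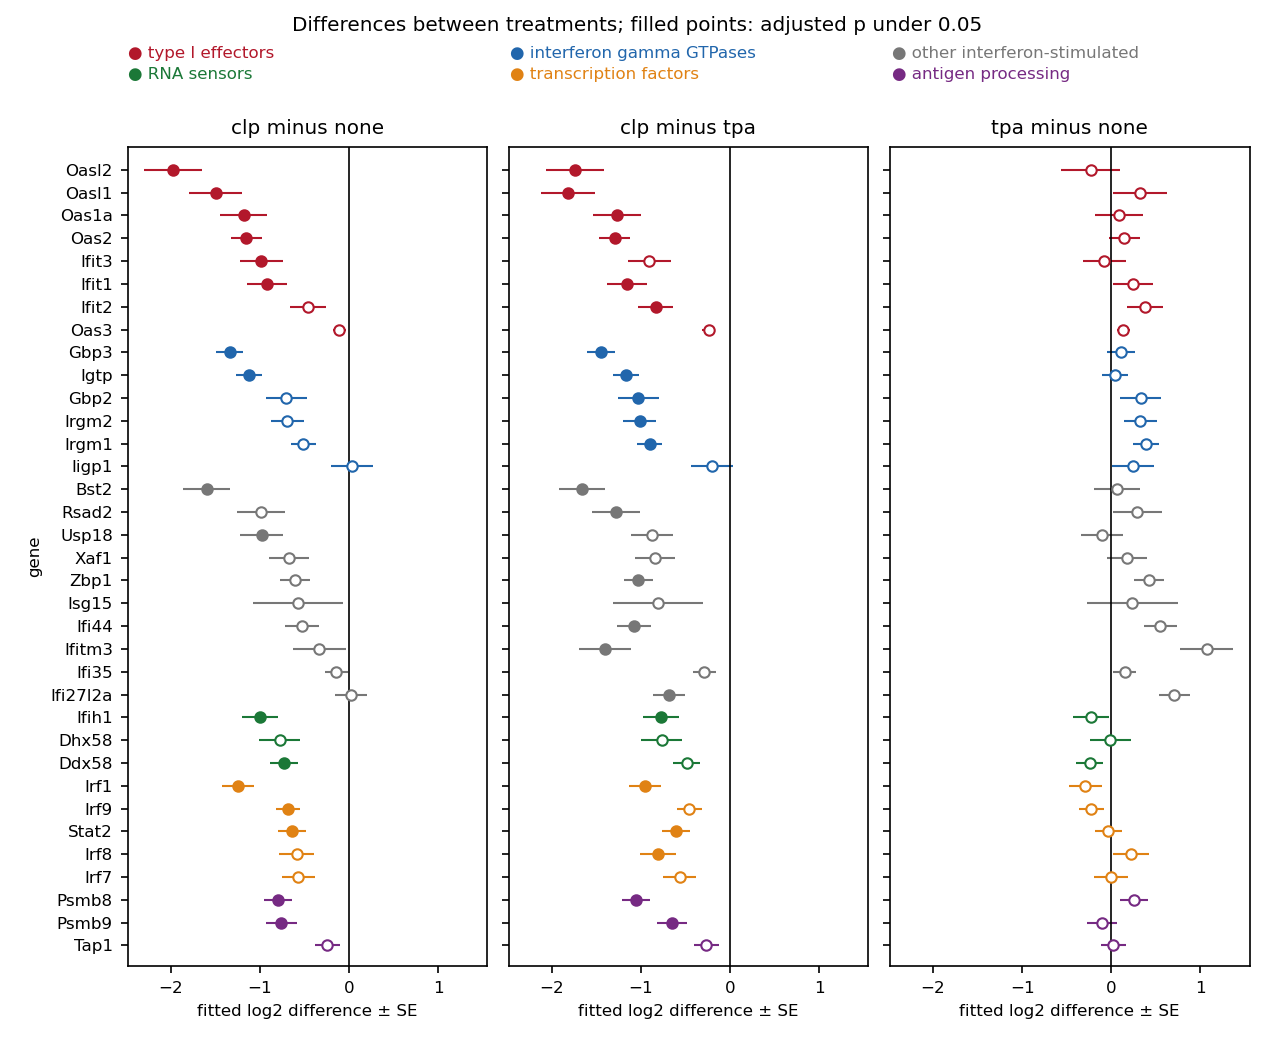
Points are fitted log2 differences with SE for the 35 genes in 3 comparisons of treatments, coloured by role and filled where the adjusted p was under 0.05. Filled points number 17 for clp minus none, 23 for clp minus tpa and 0 for tpa minus none.

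The number of calls against none depended on single arrays. It was 0 without the wt clp 50 d array (23 members at an unadjusted p under 0.05, which 27% of features had with all arrays) and 0 without the wt clp 90 d array (26). Without Eng+/- none 90 d it was higher, as was the share of all features called, and without each of the other arrays it was lower. The median over the members lay between -0.83 and -0.65 in these fits. Bst2, Gbp3, Igtp, Irf1, Oas2 and Oasl2 each passed in 10 of the 12 fits that left out 1 array. With median centring in place of loess 5 members passed against none (Ifit1 and Oasl2 of the 17, and Dhx58, Ifi44 and Rsad2), with the authors' processed signals 26 and with Cy5 alone 32, of which Iigp1 was higher with clp, at 0.82. The share of all features called moved too, from 7.78% to 6.48, 16.4 and 24.6%.

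Macrophage markers were lower with clp as well. Of 9 measured, 6 fell against none, with a median of -1.22, among them Adgre1 (F4/80) at -1.89 ± 0.20 (SE; adjusted p = 0.0137). Their summed Cy5 intensity was 26266 to 57733 on the clp arrays, 117264 to 161659 on the none arrays and 117397 to 171461 with tpa, and all 9 were above background on all arrays. T and natural killer cell markers fell in 2 of 9 (Cd3g and Cd3e). Their sums, in which Cd4 had the brightest probe, were not lower with clp. They were 10191 to 18923 with clp, 8780 to 12403 with none and 8116 to 9672 with tpa. The median log2 ratio of the 9, each minus the gene's own mean, was lower on the clp arrays. It was -0.29 to -0.16 with clp, -0.06 to 0.18 with none and -0.01 to 0.21 with tpa. Of these 9, 5 were above background on all arrays, Cd8a on 11, Klrb1c on 8, Ncr1 on 6 and Cd247 on 3. Markers of Langerhans and dendritic cells fell in 2 of 9 (H2-Eb1 and H2-Ab1), with sums of 57774 to 127691, 153515 to 176625 and 161611 to 199445. Saturated spots of Csf1r (3 arrays), Ctss and Cd74 (4 each) and H2-Ab1 and H2-Eb1 (6 each) limit the macrophage and dendritic sums from above. In limma no marker of plasmacytoid dendritic cells (0 of 3, 1 at an unadjusted p under 0.05) or of neutrophils (0 of 3, and 0 unadjusted) passed. The neutrophil sums were 5725 to 14974 with clp, 2517 to 4533 with none and 5373 to 9013 with tpa. Medians of their centred log2 ratios overlapped, at -0.09 to 0.29, -0.36 to 0.27 and -0.22 to 0.08. The neutrophil gene Ngp was above background on 0 arrays. The Siglech probe used was saturated on all 12 arrays and so unable to show a difference. A second, dimmer Siglech probe, saturated on 0 arrays, was not the one tested. Of 11 hair shaft genes 3 rose with clp, with sums of 253042 to 454646, against 11090 to 447810 with none and 15239 to 410601 with tpa. Of 5 fibroblast genes tested 1 fell with clp against none, Lum, and all 5 differences were below 0, with a median of -0.75 and sums of 181125 to 236593 with clp, 234854 to 262534 with none and 224913 to 259903 with tpa. Of 6 epidermal genes 1 passed, Lor, and 5 differences were below 0, with a median of -0.44 and sums of 203270 to 264198, 242931 to 305828 and 249465 to 281275. The probes used for Col1a1, Col3a1, Krt5 and Lor were saturated on all 12 arrays. Their Cy5 could not show a difference, and the call of Lor need not reflect its RNA. Those of Col1a2, Krt14, Krt10 and Lum were saturated on 11, 10, 6 and 5 arrays. The part of these cells and structures in the interferon differences was not tested, and in bulk RNA fewer cells of a type and less RNA per cell cannot be told apart.

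Against tpa, 23 of the 35 members fell with clp, compared with 4.57% of all features called lower, and all 35 differences were below 0, against 42.2% of features, with a median of -0.90. This comparison uses the same 4 clp arrays as the one above, so its values stand beside those and are no separate support. By role, 6 of 8 type I effectors, 5 of 6 interferon gamma GTPases, 6 of 10 other interferon-stimulated genes, 1 of 3 sensors, 3 of 5 transcription factors and 2 of 3 antigen processing genes passed. Gbp3 was at -1.45 ± 0.15 (SE; adjusted p = 0.00579), Igtp at -1.16 ± 0.14 (SE; adjusted p = 0.0066), Oas2 at -1.30 ± 0.17 (SE; adjusted p = 0.0074) and Bst2 at -1.66 ± 0.26 (SE; adjusted p = 0.0102), and these 4 genes passed in all 12 fits that left out 1 array. Gbp2, Irgm1 and Irgm2 passed here, at -1.03 (adjusted p = 0.0298), -0.90 (adjusted p = 0.0102) and -1.01 (adjusted p = 0.0168). So did Ifitm3 at -1.40 (adjusted p = 0.0245), Ifi44 at -1.08 (adjusted p = 0.0142), Zbp1 at -1.03 (adjusted p = 0.0115) and Irf8 at -0.81 (adjusted p = 0.0414). Oasl1 and Oasl2 were at -1.82 (adjusted p = 0.0122) and -1.74 (adjusted p = 0.0176), whereas Ifit3, Ddx58, Irf7 and Irf9 did not pass. On 23 members the clp arrays lay below all tpa arrays, against 7.97% of features. Macrophage markers fell in 6 of 9 here too, with a median of -1.47.

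The difference from tpa was farther from 0 in the 50 d pairs. Within pairs of the same genotype and day, the median over the members was -1.35 and -1.44 at 50 d (Eng+/- and wt), where all 35 members were lower with clp in both pairs, and -0.26 and -0.56 at 90 d, where 27 and 33 were. Without both tpa 50 d arrays no member passed in limma, 8 did at an unadjusted p under 0.05 (24.9% of features had one with all arrays), and the median was -0.42. The number of members called was lower when any single clp or tpa array was left out. It was higher without either none 90 d array, as was the share of all features called.

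With tpa against none no member passed, and 0.13% of all features were called. At an unadjusted p under 0.05 there were 5 members, against 26% of features. Without the Eng+/- none 90 d array 3 members passed, and 19.8% of all features. The smallest adjusted p-values were those of Ifi27l2a, at 0.71 ± 0.18 (SE; adjusted p = 0.0833), and Ifitm3, at 1.07 ± 0.30 (SE; adjusted p = 0.0915), both with saturated spots. The median over the members was 0.15. It joined pairs of opposite sign: at 50 d the median difference was 0.74 in Eng+/- and 0.55 in wt, with 33 and 32 of 35 members higher with tpa, and at 90 d it was -0.27 and -0.45, with 33 and 31 of 35 lower. With median centring in place of loess the wt 90 d pair turned to 0.32, on a scale where the median of all features in that pair was 0.48. For Ddx58, Ifih1 and Xaf1 the brightest and the other probe differed in sign here, at -0.24 and 0.14, -0.23 and 0.02, and 0.17 and -0.03.

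Between the 2 days, the median over the members at 90 d minus 50 d was above 0 with none (0.19 in Eng+/- and 0.63 in wt) and under clp (0.32 and 0.66), and below 0 under tpa (-0.64 and -0.27). The fitted medians were 0.52, 0.51 and -0.40. No member passed in limma in any of these 3 comparisons, nor did any feature (0% called), and 11, 11 and 9 members had an unadjusted p under 0.05, against 5.52, 12.6 and 5.79% of features. Over all treatments the day difference had a median of 0.19, again with 0 members and 0% of features called, and 6 members at an unadjusted p under 0.05, against 1.2% of features. In 19 of 35 members every one of the 6 pairs showed this order of signs, as did 2.67% of all features, and 33 of 35 showed it in the fitted differences, against 14.3%. Among the type I effectors with tpa, Oasl1 read -1.00 and -0.40 at 90 d against 0.77 and 0.16 at 50 d, and of the interferon gamma GTPases Gbp3 read 0.20 and 0.30 against 0.97 and 0.71. The interaction of day and treatment called 0 members and 0% of features, with 19 members against 13.7% of features at an unadjusted p under 0.05 and a smallest adjusted p among the members of 0.224 (Gbp3). The sign of each pair's median was the same with median centring, with the authors' processed signals and with Cy5 alone. Hair shaft genes stood far apart on some of the same arrays, with medians of -3.15 and -3.41 from their own means on the Eng+/- and wt tpa 50 d arrays and -3.77 on the Eng+/- none 90 d array, and their part in these differences was not tested.

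**Figure D3:**
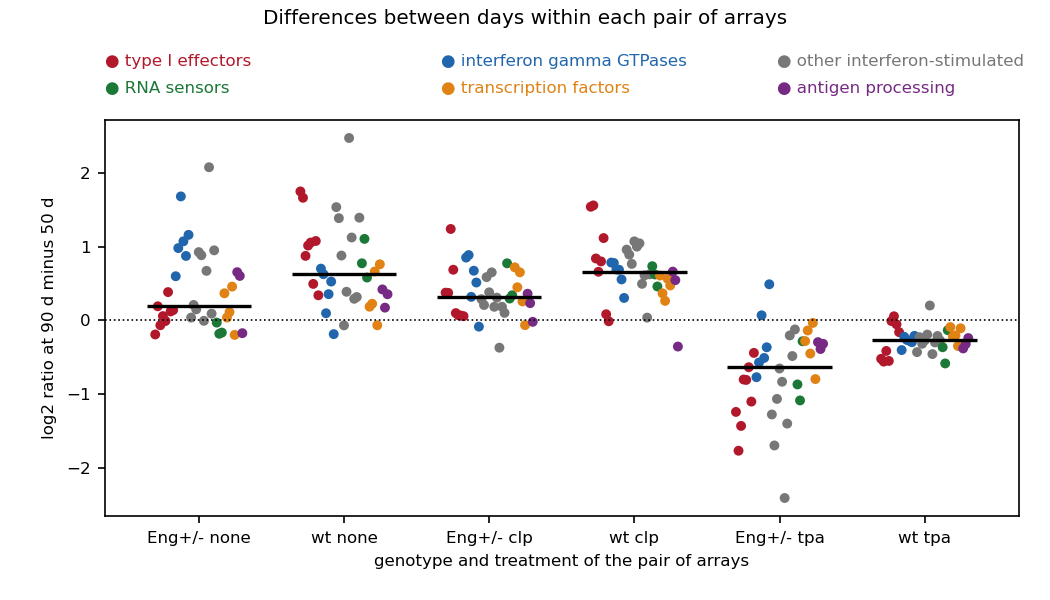
Each point is the log2 ratio of 1 gene at 90 d minus that at 50 d within a pair of arrays of the same genotype and treatment, coloured by role. Black bars are the medians over the 35 genes, which are above 0 in the 4 pairs without tpa and below 0 in both tpa pairs.

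The listed type I effectors and interferon gamma GTPases were set against each other by their medians. In clp against none the type I median was -1.07 and the interferon gamma median -0.70, a difference of -0.37 with an SD of 0.49 over the 4 pairs. It was -0.19 (SD 0.26) in clp against tpa and -0.14 (SD 0.36) in tpa against none. Each of these differences was smaller than its SD over the pairs, which describes single pairs. With median centring they were -0.48, -0.28 and -0.16, with processed signals -0.56, -0.31 and -0.17, and with Cy5 alone -0.42, -0.39 and -0.18. Of these, -0.28, -0.56, -0.31 and -0.39 exceed the SDs given above, which were taken with loess. On the wt clp 50 d array, the lowest for both, the medians of the centred ratios were -1.20 for type I and -1.14 for interferon gamma genes. On the Eng+/- tpa 50 d array they were 1.00 and 0.79.

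**Figure D4:**
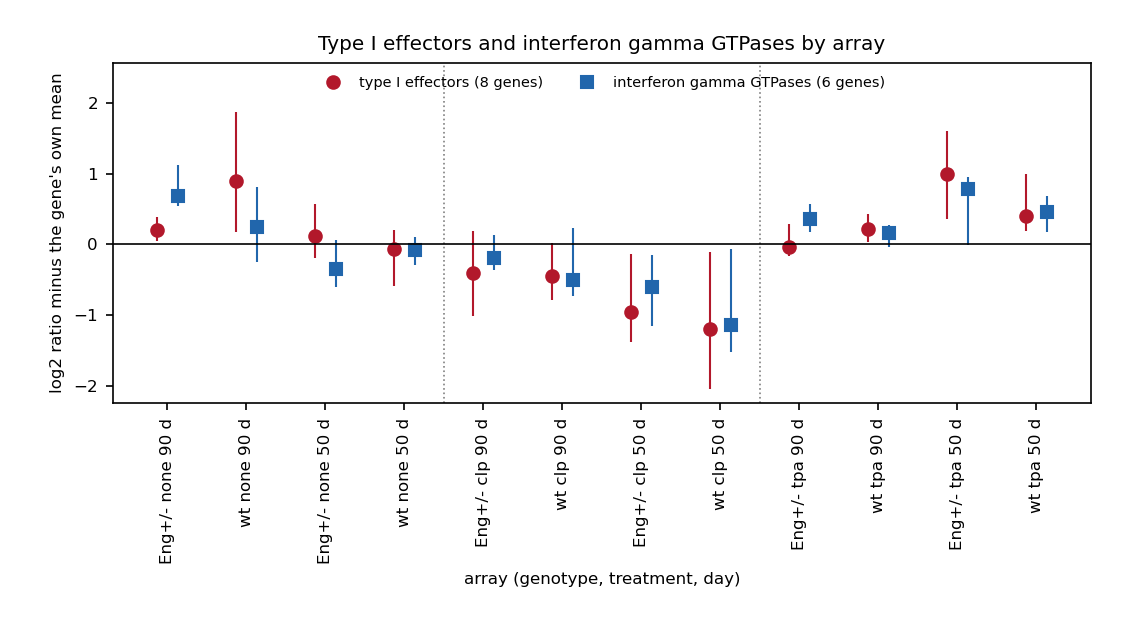
Symbols are the medians of the log2 ratios, each minus the gene's own mean, of 8 type I effectors (circles) and 6 interferon gamma GTPases (squares) on each of the 12 arrays, and lines span their lowest and highest gene. The medians stand farthest apart on the 2 none 90 d arrays, at 0.20 and 0.69 in Eng+/- and 0.90 and 0.24 in wt.

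The type I and interferon gamma sets differed in opposite directions between Eng+/- and wt in the genotype pair of none 90 d. There the type I median was 0.20 on the Eng+/- array and 0.90 on the wt array, and the interferon gamma median 0.69 and 0.24. Within this pair all 8 type I effectors were lower in Eng+/-, with a median difference of -0.63, while 5 of 6 interferon gamma GTPases were higher, with a median of 0.39. The tpa 90 d pair had the same signs with smaller values, -0.21 (8 of 8 lower) and 0.21 (5 of 6 higher). At 50 d with none the order was the opposite, with 0.23 for type I (7 of 8 higher) and -0.19 for interferon gamma genes (6 of 6 lower). Both sets were higher in Eng+/- in the other 50 d pairs, at 0.48 and 0.33 with clp and 0.60 and 0.30 with tpa. In the clp 90 d pair the type I median was 0.00 (4 of 8 higher) and the interferon gamma median 0.41 (4 of 6 higher). Hair shaft genes differed most in the none 90 d pair, with a median of -3.77 from their own means in Eng+/- and 2.13 in wt, and their part in these differences was not tested. With median centring the type I median of the none 90 d pair turned to 0.33, or -0.25 relative to the median of all features, against 0.92 relative for the interferon gamma genes. The interferon gamma median of the 50 d pair was 0.90 with median centring, 0.01 with processed signals and 0.00 with Cy5 alone. A pair holds 1 array of each genotype, so these are single measurements.

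Over all 6 pairs no member differed between Eng+/- and wt in limma, nor did any feature (0% called). At an unadjusted p under 0.05 there were 4 members, against 13.3% of features, and the median over the members was 0.06. Irf1 and Psmb8 did not pass, at 0.39 ± 0.15 (SE; adjusted p = 0.348) and 0.37 ± 0.13 (SE; adjusted p = 0.332). Irgm1 and Irgm2 did not pass either, at 0.32 ± 0.12 (SE; adjusted p = 0.339) and 0.36 ± 0.15 (SE; adjusted p = 0.367). The interaction of genotype and day, from a model with 2 residual degrees of freedom, called 0 members and 0% of features and had 8 members at an unadjusted p under 0.05, against 3.58% of features. Those 8 were Isg15, Oasl1, Oasl2, Rsad2, Irf7, Bst2, Ifit3 and Ifit2, in each of which the Eng+/- difference was lower at 90 d than at 50 d, with Isg15 at -1.98 (adjusted p = 0.393). The interaction of genotype and treatment called 0 members, with 0 at an unadjusted p under 0.05, against 2.6% of features.

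The interferons and their receptors were tested alongside. Of 6 ligand genes that could be tested, 0 passed in limma for clp against none (1 at an unadjusted p under 0.05) and 1 for clp against tpa, Ifng (interferon gamma), at -0.46 ± 0.09 (SE; adjusted p = 0.0168) and at -0.26 ± 0.09 (SE; adjusted p = 0.0908) against none. Ifng was above background on 11 arrays, Ifnb1 and Ifna4 each on 1 and Ifne on 0. Ifna1, Ifna2, Ifnk, Ifnl3 and Il27 lay between -0.18 and 0.09 for clp against none. Of 16 receptor and signalling genes 0 passed against none (2 unadjusted) and 1 against tpa, Ifnar2, a subunit of the type I receptor, at -0.90 ± 0.21 (SE; adjusted p = 0.0369). Ifnar1, Ifngr2, Ifnlr1 and Il10rb were at -0.09, -0.27, 0.07 and -0.46 in that comparison. Of 10 genes that lead to interferon production, 0 fell against none (2 unadjusted) and 3 against tpa, the 3 being Sting1, Tlr3 and Tlr7 at -0.81 (adjusted p = 0.0179), -0.58 (adjusted p = 0.0373) and -0.70 (adjusted p = 0.042).

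Further interferon targets outside the 37 genes were counted too. Of 16 more type I targets 9 fell with clp against none and 9 against tpa, led by Rtp4, a chaperone of odorant and opioid receptors, at -1.44 (adjusted p = 0.0152) and -1.82 (adjusted p = 0.00579). Ifi204, a DNA sensor of the p200 family, was at -1.29 (adjusted p = 0.0177) and -1.56 (adjusted p = 0.00611), and the secreted protein gene Lgals3bp at -1.21 (adjusted p = 0.0177) and -1.77 (adjusted p = 0.00579). Of 19 more interferon gamma targets 4 fell in each comparison. Ifi47, another Irg GTPase, was at -1.96 (adjusted p = 0.0137) and -1.78 (adjusted p = 0.00611), and Gbp4 at -0.71 (adjusted p = 0.0452) and -0.68 (adjusted p = 0.0487). Nlrc5, which drives MHC class I transcription, and Tap2, the partner of Tap1, fell against none, at -1.07 (adjusted p = 0.0177) and -0.81 (adjusted p = 0.0439). The chemokine Cxcl10 and the immunoproteasome subunit Psmb10 fell against tpa, at -0.86 (adjusted p = 0.0359) and -0.88 (adjusted p = 0.0222).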

How the data were processed

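RNA of 12 samples was measured on Agilent 2-colour 4x44K mouse arrays. The deposited scanner files hold median foreground, background and processed signals as intensity values, with flags for spots; per the file headers they come from Feature Extraction 10.7.3.1, whereas the submitters' processing notes give 10.0. The authors' deposited table of log10 ratios equals the scanner files' log ratios on every array and was used only for that check. The series text speaks of dye swaps, which the labels of the single arrays do not show. In R 4.3.3 with limma 3.58.1, signals were corrected with normexp (offset 50), normalized by loess within arrays (control spots at weight 0) and averaged per probe; flagged outlier probes (975 of 39429) were left out. Probes with Cy5 well above background on at least 2 arrays were tested, named by accession through the RefSeq table, and the brightest probe stood for its gene, which left 25323 features. The additive model had 5 residual degrees of freedom and eBayes with trend; a second model with all 2-way interactions had 2. Lone arrays are assumed to vary alike, and the labels do not say that samples came from separate animals or cultures, so the p-values measure the spread between these arrays. Genes given on every array are up to 4 called members per role with the smallest p, plus Isg15, Ifit1, Gbp2 and Irf7. The members and lists were chosen with earlier results of these data known. The fit was tested on simulated data with independent noise on each array. These data held no slide effect, so that test cannot address slide or the dependence on single arrays. The number of arrays limits the precision.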

Additional observations from a re-analysis of the deposited data

Results flagged for a closer look

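The day difference of the interferon response genes had opposite signs between treatments, in both array pairs of each. The median over the 35 members at 90 d minus 50 d was 0.19 in Eng+/- and 0.63 in wt with none, 0.32 in Eng+/- and 0.66 in wt with clp, and -0.64 in Eng+/- and -0.27 in wt with tpa. The difference between these medians was not tested. In limma the day by treatment interaction of single genes called 0 of 35 members, with 19 at an unadjusted p under 0.05 and a smallest adjusted p of 0.224.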

How the results depend on the processing

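Members called are counted here out of 35, with 17 for clp against none, 23 for clp against tpa and 0 for tpa against none in the fit described. Median centring without loess gave 5, 14 and 3 (Ifi27l2a, Ifi44 and Ifit2, higher), and moved the median of all features to 0.24, 0.06 and 0.34. It called 6.48, 6.54 and 4.15% of all features, against 7.78, 8.19 and 0.13%. Relative to that shift the medians over the members were -0.66, -1.26 and 0.45. With median centring 1 member was called for day within tpa (0.979% of features), 1 in the day by treatment interaction (1.25%) and 7 in the genotype by treatment interaction (42.1%). The authors' processed signals gave 26 for clp against none (16.4% of features). Cy5 alone gave 32 (24.6%), of which 31 were lower and Iigp1 was higher, and 1 (Iigp1) for tpa against none (1.72%). Genotype, day and treatment as 3 additive factors gave 7 and 7 for the first 2 comparisons. The Cy3 reference read lowest on the wt none 50 d array, at a median of 99, and highest on wt clp 90 d, at 140. Its median correlation with the other arrays was also lowest on wt none 50 d, at 0.985. Without the wt arrays of none 50 d and clp 90 d, left out together, the counts were 0 (24 at an unadjusted p under 0.05) and 8. Without both tpa 50 d arrays they were 10 and 0. Leaving out 1 array gave 0 to 21 for clp against none, 5 to 30 for clp against tpa, 0 to 3 for tpa against none (0 to 19.8% of features) and 0 to 1 for day with none. The lone array of a condition is then fitted exactly and assumed to vary like the others. No paired analysis was possible because the labels carry no replicate numbers to block on; the fit itself sets Eng+/- against wt within each treatment and day. The cause of these changes was not tested. Of the members called for a difference between treatments with the settings described, none changed sign under the alternatives run; genes outside the 37 were not run under them. In the day pairs, median centring moved the medians to 0.80 (Eng+/-) and 1.16 (wt) with none and -0.91 in Eng+/- with tpa, and the wt pair was at 0.90 with processed signals and 1.02 with Cy5 alone, alternatives for these medians chosen after seeing the data.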
